A study of Mus musculus with 21 samples.

Results

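The 7 genes of the protein C and thrombin pathway described here are Procr, Thbd, F2r, F2rl1, F3, Tfpi and Pros1. They were chosen by symbol, as the gene that encodes the surface marker CD201 and 6 genes whose products act beside it, and each symbol matched 1 row in each of the expression tables. These 7 are among 22899 genes listed for coculture cells and 27968 genes listed for sorted cells.

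RNA-seq was performed on 21 mouse libraries in 7 groups of 3. Total cells were collected on day 5 of a coculture in which colonies, grown from pluripotent stem cells under 3D induction, were plated on OP9 stromal cells (3D+OP9) or on 0.1% gelatin without stroma (3D+0.1%gel). The medium of the OP9 coculture held SCF, IL-3 and Flt3 ligand. OP9 is a mouse marrow stromal line, growth-arrested here with mitomycin C, and its RNA can be part of the total cells. From the 3D+OP9 cultures, LSK cells (lineage-negative, Sca-1 positive and c-kit positive) with and without CD201 were sorted on day 5 as D5-LSKCD201+ and D5-LSKCD201-. The antibodies that the methods list for sorting include c-kit, lineage and CD201 but not Sca-1, so the Sca-1 gate rests on the LSK label. Undifferentiated embryonic stem cells (mESC) were sorted on SSEA-1. BM-LSKCD201+ cells were sorted from the bone marrow of young adult mice and FL-LSKCD201+ cells from the fetal liver of mid-gestation embryos. By their labels the coculture, D5 and mESC libraries have a 129/ola background and the BM and FL libraries are C57BL/6 (the methods name stem cells of both strains), so strain and source cannot be told apart between D5 and tissue cells. No group carried a mutation or transgene in the labels. The paper calls the 3 replicates of each sorted group biological. The labels do not say that the replicates of any group came from separate cultures or animals. On the labels alone, the p-values measure only the spread between these libraries.

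CD201, the endothelial protein C receptor, holds protein C at the cell surface, where thrombin bound to thrombomodulin cleaves it to activated protein C. Activated protein C, with protein S as its cofactor, slows coagulation, and it can also signal through the thrombin receptor PAR1. Tissue factor starts coagulation at the other end of the pathway and tissue factor pathway inhibitor holds it back. In hematopoiesis CD201 is known as a marker that enriches stem cells of bone marrow and fetal liver.

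The values are FPKM, read pairs scaled to transcript length and library size, so levels can be compared between genes per length. Library depth is unknown because only FPKM were used. Summed FPKM ran from 483263 to 508307 in the coculture libraries and from 508622 to 620332 in the sorted ones, and the tables were scaled separately, so tests were made only within a table. Defining markers followed the labels in part. Pluripotency genes (7 of 7 found) summed to 1958 to 2037 FPKM in mESC and 19.3 to 20.4 in D5-LSKCD201+, and to 997 to 1007 in D5-LSKCD201-. Kit and Ly6a (Sca-1), which define the LSK label, summed to 99.8 to 112 FPKM in D5-LSKCD201+, 55.5 to 65.3 in D5-LSKCD201-, 7.25 to 9.08 in mESC, 76.9 to 114 in FL-LSKCD201+ and 308 to 336 in BM-LSKCD201+. Ptprc, which encodes the blood cell antigen CD45, stood at only 0.305, 0.321 and 0.602 FPKM in D5-LSKCD201+, against 38.4 to 52.1 in FL-LSKCD201+ and 64.3 to 71.6 in BM-LSKCD201+. It averaged 0.633 in D5-LSKCD201-. The 8 pan-hematopoietic genes, Ptprc among them, summed to 147 to 151 FPKM in D5-LSKCD201+, where Lcp1 averaged 92.2. Their sum was 29.4 to 32.6 in D5-LSKCD201-, 23.7 to 25.8 in mESC, 1315 to 1543 in FL-LSKCD201+ and 1828 to 2018 in BM-LSKCD201+. Endothelial genes (10 of 10 found) summed to 1977 to 2002 FPKM in D5-LSKCD201+, 232 to 245 in D5-LSKCD201-, 50.5 to 53.5 in mESC, 448 to 492 in FL-LSKCD201+ and 318 to 360 in BM-LSKCD201+. The FL libraries also held hepatocyte genes (7 of 7 found, 395 to 620 FPKM in sum, against 6.16 to 9.78 in BM) and erythroid genes (8997 to 19196 FPKM, against 176 to 186), although the sort was for lineage-negative cells. In bulk samples, fewer cells of a type and less RNA per cell cannot be told apart.

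On the mouse genome GRCm38 with GENCODE annotation, 3 of the 7 genes lie on chromosome 2, at chr2:84432855-84476775 (Tfpi, minus strand), chr2:148404466-148408188 (Thbd, minus strand) and chr2:155751117-155755471 (Procr, plus strand). F2rl1 (chr13:95511732-95525227, minus strand) and F2r (chr13:95601803-95618487, minus strand) lie 76.6 kb apart. F3 lies at chr3:121723537-121735048 and Pros1 at chr16:62854307-62929346, both on the plus strand. All 7 are annotated as protein coding.

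Promoter windows were read from RefSeq (GRCm38.p6, 250 bases before to 50 bases after the start site), which held 5 of the 7 genes. Thbd and F2rl1 are named without a sequence. The windows of Procr, F2r and Pros1 are printed because these genes passed both thresholds in D5-LSKCD201+ cells over D5-LSKCD201- cells, which Tfpi did not, and that of F3 because it shares a motif with Procr and F2r and did not rise with them. They lie at chr2:155750967-155751266 (plus strand), chr13:95618417-95618716 (minus strand), chr16:62854057-62854356 (plus strand) and chr3:121723287-121723586 (plus strand). Capitals mark the AP-1 letters TGACTCA or, read on the other strand, TGAGTCA.
Procr: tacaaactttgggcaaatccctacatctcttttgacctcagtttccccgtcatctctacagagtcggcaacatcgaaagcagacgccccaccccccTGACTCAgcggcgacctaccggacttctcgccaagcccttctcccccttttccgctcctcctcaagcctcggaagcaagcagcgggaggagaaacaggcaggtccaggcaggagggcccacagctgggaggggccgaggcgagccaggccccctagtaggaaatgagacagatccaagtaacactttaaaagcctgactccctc
F2r: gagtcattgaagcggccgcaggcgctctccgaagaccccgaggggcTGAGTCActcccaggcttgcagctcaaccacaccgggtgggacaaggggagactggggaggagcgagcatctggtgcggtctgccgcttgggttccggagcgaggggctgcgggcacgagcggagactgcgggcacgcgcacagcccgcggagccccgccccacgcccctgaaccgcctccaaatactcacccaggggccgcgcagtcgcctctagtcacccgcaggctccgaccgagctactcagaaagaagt
Pros1: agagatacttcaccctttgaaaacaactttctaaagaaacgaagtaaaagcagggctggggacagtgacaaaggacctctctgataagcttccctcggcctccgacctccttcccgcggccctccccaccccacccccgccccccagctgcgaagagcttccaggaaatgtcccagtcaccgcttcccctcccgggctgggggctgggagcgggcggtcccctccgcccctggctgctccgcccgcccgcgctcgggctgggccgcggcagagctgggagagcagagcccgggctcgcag
F3: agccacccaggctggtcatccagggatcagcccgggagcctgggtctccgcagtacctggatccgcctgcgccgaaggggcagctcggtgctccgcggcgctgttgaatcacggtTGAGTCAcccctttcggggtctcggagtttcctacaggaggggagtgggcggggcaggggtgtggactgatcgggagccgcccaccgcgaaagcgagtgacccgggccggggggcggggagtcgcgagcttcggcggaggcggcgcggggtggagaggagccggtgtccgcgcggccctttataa

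The AP-1 letters began 154 bases before the RefSeq start site in Procr, 204 in F2r and 135 in F3. For Procr and F2r that site does not coincide with the GENCODE gene start given above. The AP-1 letters were in 3 of the 5 genes with a window. Of 27025 mouse genes with windows of the same 300 bases, 5.95% held them on either strand in at least 1 window. The GATA letters AGATAA were in 1 of the 5 genes (Tfpi, in the second of its windows) and in 12.7% of all genes, and the ETS letters CCGGAA in 1 of the 5 (F2r) and in 16.7%. The GC box letters GGGCGG were in 4 of the 5 genes (all but Procr) and in 38.2% of all genes. The 4 motifs, which overlap no letters of one another in these windows, were chosen after the sequences had been seen. A match is a description of the letters, not a site. G and C made up 58.3% of the Procr window, 68.7% of F2r, 66.7% of Pros1, 70.3% of F3 and 48.0% and 52.3% of the Tfpi windows, against a median of 52.7% over all windows.

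Procr encodes CD201 itself, so its level in cells sorted on CD201 checks the labels and is no finding. In CD201-sorted D5 cells it stood at 59.2, 61.9 and 57.9 FPKM in the 3 replicates of D5-LSKCD201+ and at 3.59, 3.02 and 3.82 in D5-LSKCD201-. FL-LSKCD201+ held 66.6, 69.3 and 69.4 FPKM, BM-LSKCD201+ held 117, 123 and 121, and mESC held 2.67, 2.31 and 2.23. The 9 libraries labelled CD201+ thus all exceeded the 6 others, 17.2-fold between the means of D5-LSKCD201+ and D5-LSKCD201-. No ranges overlapped between neighbours in the order of BM, FL, D5-LSKCD201+, D5-LSKCD201- and mESC.

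Among the 3 CD201+ groups, Procr RNA differed although all passed the same marker. Bone marrow cells carried 2.02-fold the level of D5-LSKCD201+ cells, a log2 fold change of -1.001 for D5-LSKCD201+ against BM-LSKCD201+ (SE 0.05, limma adjusted p = 6.29e-07). This value sits at the threshold of 1 and missed it with D5-LSKCD201+ replicate 1 or 3, or BM-LSKCD201+ replicate 2 or 3, left out (-0.996, -0.979, -0.982 and -0.999, all with the same sign). Against FL-LSKCD201+ the difference was -0.20 (95% confidence interval -0.35 to -0.04, adjusted p = 0.0290), and bone marrow exceeded fetal liver by 0.81 (adjusted p = 0.000142), both short of the size threshold. In D5-LSKCD201- cells Procr was 0.39 above mESC (adjusted p = 0.0215). In total coculture cells it was low, at 1.58, 1.67 and 3.76 FPKM in 3D+OP9 and 1.36, 1.69 and 2.44 in 3D+0.1%gel, and these ranges overlapped (log2 fold change 0.20, 95% confidence interval -0.42 to 0.81, adjusted p = 0.714). Without 3D+OP9 replicate 3, the highest library, the sign turned (-0.091, adjusted p = 0.764).

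Thbd encodes thrombomodulin, the surface cofactor that turns thrombin towards protein C. Its FPKM reached 17.1, 16.2 and 15.3 in D5-LSKCD201+, while D5-LSKCD201- cells held 2.28, 0.977 and 2.05. In FL-LSKCD201+ they were 3.46, 2.74 and 2.69, in BM-LSKCD201+ 0.438, 1.25 and 1.53, and in mESC 0.143, 0.0157 and 0.128. The D5-LSKCD201+ libraries stood above all 12 others, with a mean 9.18-fold that of D5-LSKCD201-, 5.47-fold that of FL-LSKCD201+ and 15.1-fold that of BM-LSKCD201+. FL-LSKCD201+ came next, the ranges of D5-LSKCD201- and BM-LSKCD201+ overlapped, and mESC stood lowest.

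On the log2 scale, Thbd was 2.67 higher in D5-LSKCD201+ than in D5-LSKCD201- (SE 0.19, adjusted p = 1.77e-05), 2.12 higher than in FL-LSKCD201+ (adjusted p = 2.80e-06) and 3.09 higher than in BM-LSKCD201+ (adjusted p = 3.94e-06). Bone marrow lay below fetal liver by -0.97 (SE 0.22, adjusted p = 0.00810), just short of the size threshold, which it passed without BM replicate 2 or 3 or FL replicate 2 or 3 (-1.05, -1.14, -1.01 and -1.02). With a pseudocount of 0.1 FPKM in place of 1 this difference was -1.53. The 2 CD201+ tissue groups therefore held high Procr beside Thbd of a few FPKM or less. Of the 10 endothelial marker genes, 9 were called higher in D5-LSKCD201+ than in D5-LSKCD201-, 9 than in FL-LSKCD201+ and 10 than in BM-LSKCD201+. Among them Cdh5 (VE-cadherin) stood at 67.6 to 73.6 FPKM in D5-LSKCD201+, 0.733 to 1.60 in FL-LSKCD201+ and 0 to 0.0645 in BM-LSKCD201+. Between bone marrow and fetal liver, 3 of 9 tested endothelial genes were lower in bone marrow and 6 were not called. The part of endothelial genes in the Thbd differences was not tested.

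In the coculture, Thbd stood at 1.01, 1.13 and 1.38 FPKM with OP9 and at 0.26, 0.08 and 0.14 on gelatin. The groups did not overlap, and the means differed 7.33-fold. On the log2(FPKM + 1) scale, which understates changes of such low genes, the difference was 0.91 (SE 0.13, adjusted p = 0.00772), under the size threshold, and with a pseudocount of 0.1 it was 2.34 (adjusted p = 0.00896). Thbd passed the filter on low values only through the OP9 libraries, so it had to differ here.

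**Figure D1:**
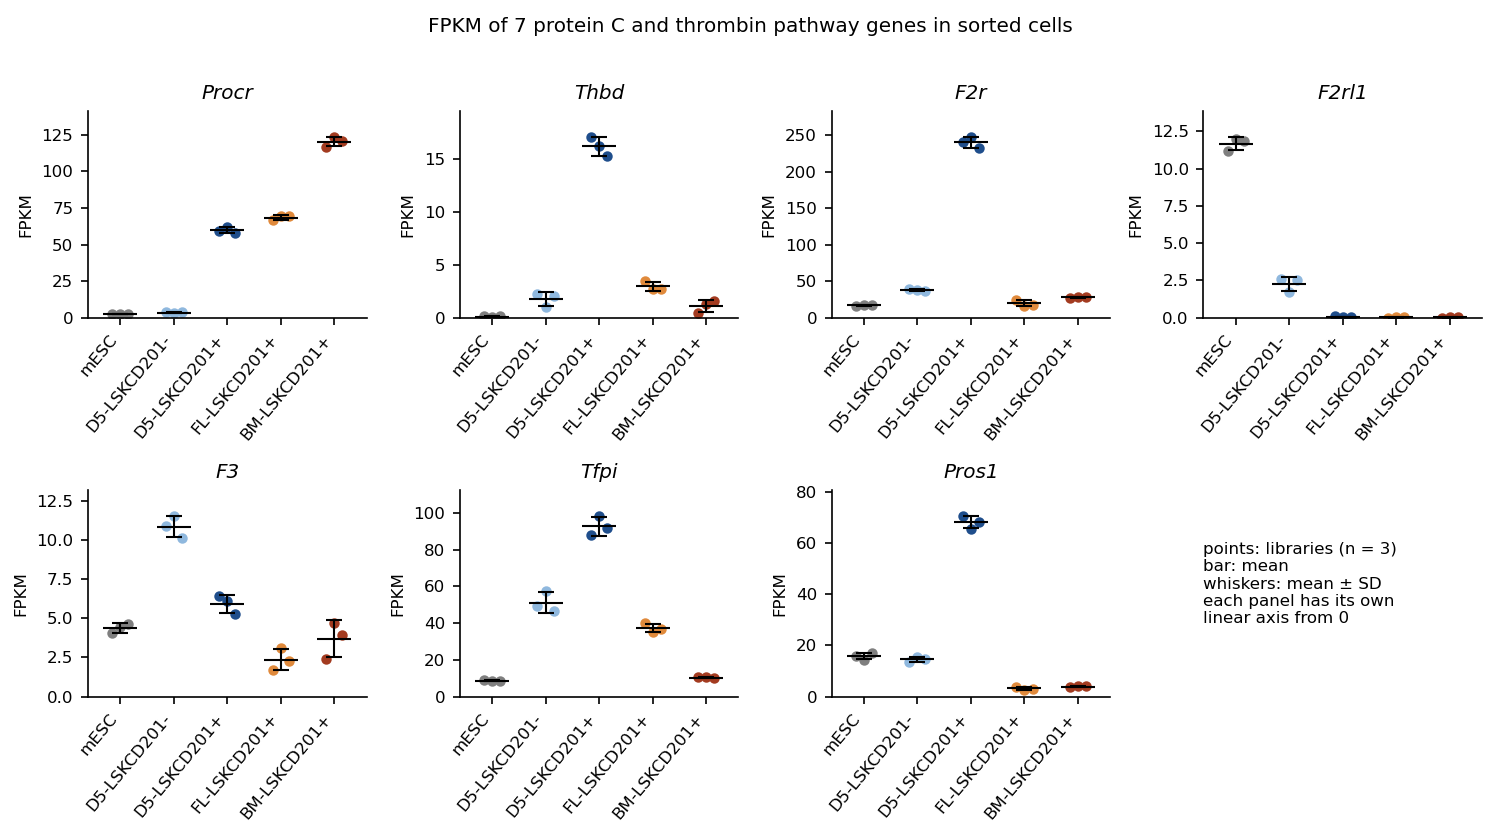
FPKM of the 7 genes in the 5 sorted groups, each point a library, the bar the mean and the whiskers the SD (n = 3), on linear axes from 0. Thbd, F2r, Tfpi and Pros1 peak in D5-LSKCD201+, Procr in BM-LSKCD201+, F2rl1 in mESC and F3 in D5-LSKCD201-.

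F2r encodes PAR1, the main receptor through which thrombin signals to cells. It had the highest level of the 7 genes in D5-LSKCD201+, with 240, 247 and 232 FPKM, against 39.1, 37.9 and 35.8 in D5-LSKCD201-. The other groups held 24.4, 16.3 and 17.9 (FL-LSKCD201+), 26.6, 28.1 and 28.5 (BM-LSKCD201+) and 16.2, 17.3 and 17.0 (mESC). All 3 D5-LSKCD201+ libraries stood above every other library, and the means were 6.38-fold that of D5-LSKCD201-, 12.3-fold that of FL-LSKCD201+ and 8.65-fold that of BM-LSKCD201+. The ranges of FL-LSKCD201+ and mESC overlapped, and no other neighbours did.

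The log2 difference of F2r was 2.64 against D5-LSKCD201- (SE 0.05, adjusted p = 7.84e-08), 3.57 against FL-LSKCD201+ (adjusted p = 1.19e-06) and 3.07 against BM-LSKCD201+ (adjusted p = 3.82e-09). D5-LSKCD201- cells themselves exceeded mESC by 1.11 (SE 0.07, adjusted p = 1.14e-05). Bone marrow exceeded fetal liver by 0.50 (adjusted p = 0.0233), under the size threshold. Thus the CD201+ D5 cells and the CD201+ tissue cells, whose Procr RNA was within 2.02-fold, differed in F2r by 8.65-fold or more.

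With OP9, F2r also stood higher in total cells, at 67.8, 73.9 and 59.9 FPKM against 32.6, 24.8 and 32.8 on gelatin. No library of 3D+OP9 reached down to the gelatin range, the means differed 2.23-fold, and the log2 difference was 1.14 (SE 0.13, adjusted p = 0.00355). It kept its call under every alternative run. The endothelial sum was 126 to 159 FPKM in 3D+OP9 and 29.4 to 47.3 on gelatin, and the stromal sum (8 of 8 genes found) was 58.2 to 69.4 and 25.7 to 37.0. Erythroid genes (6 of 6 found) summed to 37.3 to 93.1 FPKM with OP9 and 4.58 to 8.22 on gelatin, and megakaryocyte and platelet genes (6 of 6 found) to 6.56 to 8.56 and 0.46 to 0.77. The part of these cell types in the F2r difference, and in the other coculture differences, was not tested.

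F2rl1 encodes PAR2, a related receptor that trypsin-like proteases and the tissue factor complex open, and that thrombin does not cleave well. Its pattern ran the other way, with 11.14, 11.96 and 11.88 FPKM in mESC and 2.60, 1.75 and 2.49 in D5-LSKCD201-. D5-LSKCD201+ held 0.0771, 0.0231 and 0.0212 FPKM, FL-LSKCD201+ was listed at 0 in replicate 1 and held 0.0211 and 0.0560 in the others, and BM-LSKCD201+ was listed at 0 in replicate 1 and held 0.0168 and 0.0336. All 9 CD201+ libraries were thus under 0.1 FPKM, and their 3 groups overlapped. The mean of mESC was 5.11-fold that of D5-LSKCD201-, and no fold is given against the CD201+ groups because their values lie too near 0.

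The fitted log2 change of F2rl1 was -1.65 from D5-LSKCD201- to D5-LSKCD201+ (SE 0.12, adjusted p = 1.87e-05), -1.96 from mESC to D5-LSKCD201- (SE 0.13, adjusted p = 1.70e-05) and -3.60 from mESC to D5-LSKCD201+ (adjusted p = 3.31e-10). In the fits with D5-LSKCD201+, F2rl1 passed the filter on low values only through the other group and had to differ, and it was not tested between CD201+ groups. Of the 7 pluripotency genes, all 7 fell from D5-LSKCD201- to D5-LSKCD201+ and 4 fell from mESC to D5-LSKCD201-, with Nanog at 71.6 to 78.0 and 71.0 to 75.7 FPKM, respectively, in D5-LSKCD201- and mESC. Their part in the F2rl1 differences was not tested. In total coculture cells F2rl1 stood at 26.5, 23.1 and 24.6 FPKM with OP9 and at 38.9, 30.3 and 28.3 on gelatin. Gelatin lay above OP9 in every library, but the log2 difference of -0.37 missed the threshold (95% confidence interval -0.67 to -0.07, adjusted p = 0.137).

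**Figure D2:**
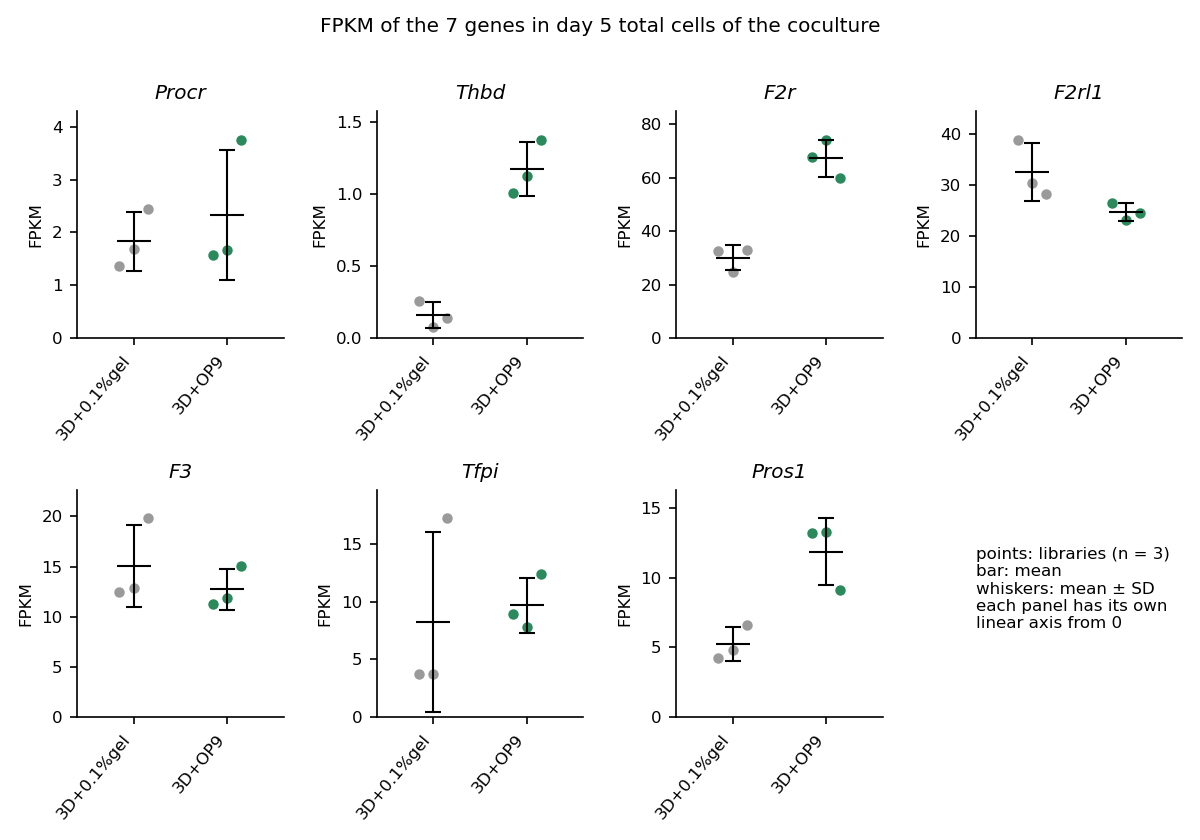
FPKM of the 7 genes in total day 5 cells with OP9 or on gelatin, each point a library, the bar the mean and the whiskers the SD (n = 3), on linear axes from 0. F2r, Pros1 and Thbd are higher in every 3D+OP9 library, F2rl1 is lower in each, and 1 gelatin library stands apart at 17.2 FPKM of Tfpi.

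F3 encodes tissue factor, the cell surface receptor of factor VII that starts coagulation. It was highest in D5-LSKCD201-, at 10.9, 11.5 and 10.1 FPKM, and stood at 6.39, 6.10 and 5.23 in D5-LSKCD201+. mESC held 4.06, 4.43 and 4.65 FPKM, BM-LSKCD201+ 2.38, 4.71 and 3.94, and FL-LSKCD201+ 1.71, 3.07 and 2.29. The D5 groups stood apart from each other and above the rest, while the ranges of mESC and BM-LSKCD201+, and of BM-LSKCD201+ and FL-LSKCD201+, overlapped. F3 had the narrowest span of the 7 genes, 4.60-fold between the highest and lowest group means.

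From D5-LSKCD201- to D5-LSKCD201+, F3 differed by -0.78 on the log2 scale (SE 0.10, adjusted p = 0.000333), below the size threshold. It rose from mESC to D5-LSKCD201- by 1.14 (SE 0.09, adjusted p = 5.61e-05), which became 0.97 after quantile normalization. D5-LSKCD201+ exceeded FL-LSKCD201+ by 1.06 (SE 0.16, adjusted p = 0.000864), or 0.91 without FL replicate 1, and BM-LSKCD201+ by 0.59 (adjusted p = 0.0218). Coculture values were 11.2, 11.8 and 15.1 FPKM with OP9 and 12.5, 12.8 and 19.8 on gelatin, overlapping ranges with a difference of -0.21 (95% confidence interval -0.65 to 0.24, adjusted p = 0.568).

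Tfpi encodes tissue factor pathway inhibitor, which blocks the complex of tissue factor and factor VIIa together with factor Xa. Its levels reached 88.0, 98.4 and 92.0 FPKM in D5-LSKCD201+, while D5-LSKCD201- cells held 49.4, 57.4 and 46.5. FL-LSKCD201+ held 39.8, 35.2 and 37.0, BM-LSKCD201+ 10.7, 10.5 and 9.83, and mESC 8.78, 8.71 and 8.62. No neighbours in this order overlapped. The mean of D5-LSKCD201- was 5.87-fold that of mESC, and the mean of D5-LSKCD201+ a further 1.82-fold higher.

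The log2 difference of Tfpi was 2.42 for D5-LSKCD201- against mESC (SE 0.09, adjusted p = 1.51e-06) and 0.85 for D5-LSKCD201+ against D5-LSKCD201- (SE 0.09, adjusted p = 0.000113), the latter under the size threshold. D5-LSKCD201+ exceeded FL-LSKCD201+ by 1.29 (adjusted p = 8.42e-06) and BM-LSKCD201+ by 3.05 (adjusted p = 9.69e-09). Bone marrow fell below fetal liver by -1.76 (SE 0.09, adjusted p = 9.19e-06), a 3.61-fold difference in means. In the same direction, 7 of 7 hepatocyte and 6 of 6 erythroid genes were called lower in bone marrow. Of the myeloid list (8 of 8 found) 4 genes were lower and 4 were not called, and its sum was 1626 to 1757 FPKM in FL and 424 to 447 in BM. Of the endothelial list, 3 of 9 tested genes were lower and 6 were not called. The part of these cell types was not tested.

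In the coculture, Tfpi stood at 8.95, 7.78 and 12.4 FPKM with OP9 and at 3.72, 3.77 and 17.2 on gelatin. Gelatin replicate 3 alone exceeded all OP9 libraries, so the groups overlapped and the difference was 0.50 (SE 0.50, 95% confidence interval -0.67 to 1.67, adjusted p = 0.604). Without that library it was 1.15 (adjusted p = 0.0335). This library also stood apart in the hepatocyte list, which summed to 19.3 FPKM against 1.70 and 0.92 in the other gelatin libraries, mostly from Ttr at 11.8, with Alb listed at 0 in all 6 libraries. Whether the 2 departures are linked was not tested.

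Pros1 encodes protein S, the plasma cofactor of activated protein C and of Tfpi, and a ligand of the receptors Tyro3, Axl and Mertk. In D5-LSKCD201+ it stood at 70.7, 65.8 and 68.4 FPKM, against 13.4, 15.6 and 14.6 in D5-LSKCD201-. mESC held 15.9, 14.4 and 16.9, BM-LSKCD201+ 3.63, 4.09 and 3.98, and FL-LSKCD201+ 3.80, 2.73 and 2.93. The D5-LSKCD201+ libraries exceeded all others, D5-LSKCD201- and mESC overlapped, and so did BM-LSKCD201+ and FL-LSKCD201+ at the low end. The mean of D5-LSKCD201+ was 4.71-fold that of D5-LSKCD201-, 17.5-fold that of BM-LSKCD201+ and 21.6-fold that of FL-LSKCD201+.

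Pros1 rose by 2.16 on the log2 scale from D5-LSKCD201- to D5-LSKCD201+ (SE 0.07, adjusted p = 4.51e-07), by 4.07 over FL-LSKCD201+ (adjusted p = 1.94e-07) and by 3.82 over BM-LSKCD201+ (adjusted p = 4.64e-09). D5-LSKCD201- against mESC gave -0.11 (95% confidence interval -0.32 to 0.11, adjusted p = 0.345) and BM against FL 0.25 (95% confidence interval -0.07 to 0.56, adjusted p = 0.162). With OP9 the coculture values were 13.2, 13.3 and 9.13 FPKM, above 4.22, 4.84 and 6.59 on gelatin without overlap. The difference of 1.05 (SE 0.19, adjusted p = 0.0191) passed, but narrowly. It was 0.99 after quantile normalization, and lost its call without OP9 replicate 1 (0.97, adjusted p = 0.0800) or 2 (0.97, 0.0799) or gelatin replicate 1 (0.94, 0.0577) or 2 (1.02, 0.0986).

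**Figure D3:**
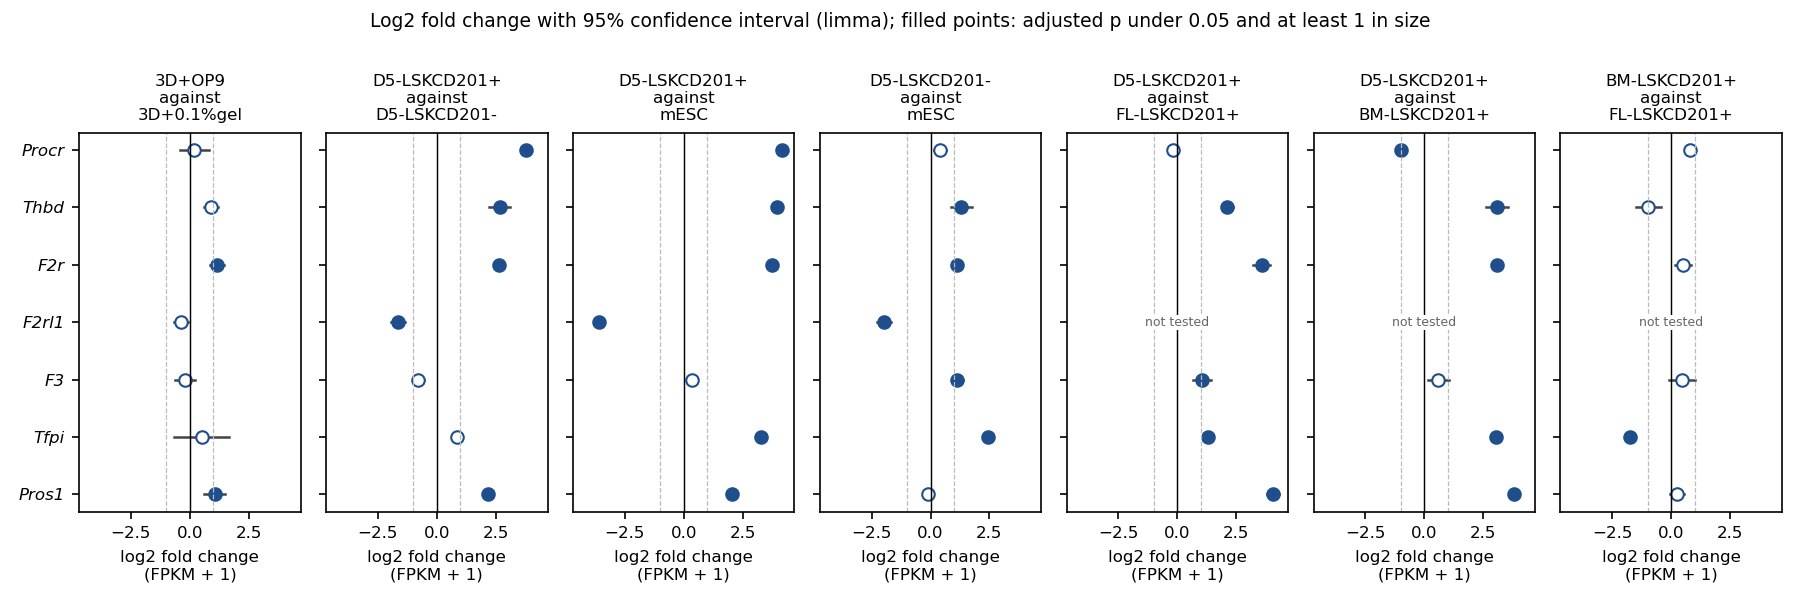
Log2 fold change of each gene in the 7 comparisons (limma on log2(FPKM + 1), horizontal axis) with 95% confidence intervals, filled where the adjusted p is under 0.05 and the size at least 1. D5-LSKCD201+ exceeds every other sorted group in Thbd, F2r and Pros1, while F2rl1 lies left of 0 wherever it was tested.

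Per length and within a library, the receptors of the family were set against each other, F2r (PAR1), F2rl1 (PAR2), F2rl2 (PAR3) and F2rl3 (PAR4, a lower-affinity thrombin receptor). In mESC, F2r made up 58.9% ± 0.122 (SD, n = 3) of their summed FPKM and F2rl1 40.7% ± 0.247. In D5-LSKCD201- the shares were 89.4% ± 0.543 and 5.43% ± 1.12, and in D5-LSKCD201+ 85.5% ± 0.690 and 0.0145% ± 0.0114, with F2rl3 at 14.4% ± 0.686. FL-LSKCD201+ and BM-LSKCD201+ instead divided their sum between F2r (45.4% ± 2.67 and 48.8% ± 3.62) and F2rl3 (49.5% ± 2.0 and 48.7% ± 3.56). All CD201+ libraries thus carried almost no F2rl1, and the tissue libraries carried F2r and F2rl3 at like levels. In 3D+OP9 total cells F2r held 69.7 to 74.5% and F2rl1 23.2 to 28.6%, and on gelatin 44.7 to 53.5% and 46.1 to 54.7%, without overlap for either gene.

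The ratio of Tfpi to F3 FPKM set the inhibitor against the initiator in each library. It was 2.16, 1.97 and 1.85 in mESC and 4.54, 4.99 and 4.59 in D5-LSKCD201-, and it reached 13.8, 16.1 and 17.6 in D5-LSKCD201+. FL-LSKCD201+ gave 23.2, 11.5 and 16.1, overlapping D5-LSKCD201+, and BM-LSKCD201+ gave 4.50, 2.22 and 2.50. These ratios and shares are given as descriptions and were not tested. Summed over the 7 genes, the FPKM were 59.8 ± 1.38 in mESC, 122 ± 6.39 in D5-LSKCD201-, 483 ± 12.3 in D5-LSKCD201+, 134 ± 5.36 in FL-LSKCD201+ and 167 ± 5.75 in BM-LSKCD201+ (SD, n = 3). F2r made up the largest part in D5-LSKCD201+. The sort marker Procr made up the largest part in both tissue groups, with means of 68.4 FPKM in FL-LSKCD201+ and 120 in BM-LSKCD201+. It averaged 59.7 in D5-LSKCD201+, 3.48 in D5-LSKCD201- and 2.40 in mESC. The order of the groups by these sums thus rests in part on the sort and is no finding.

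**Figure D4:**
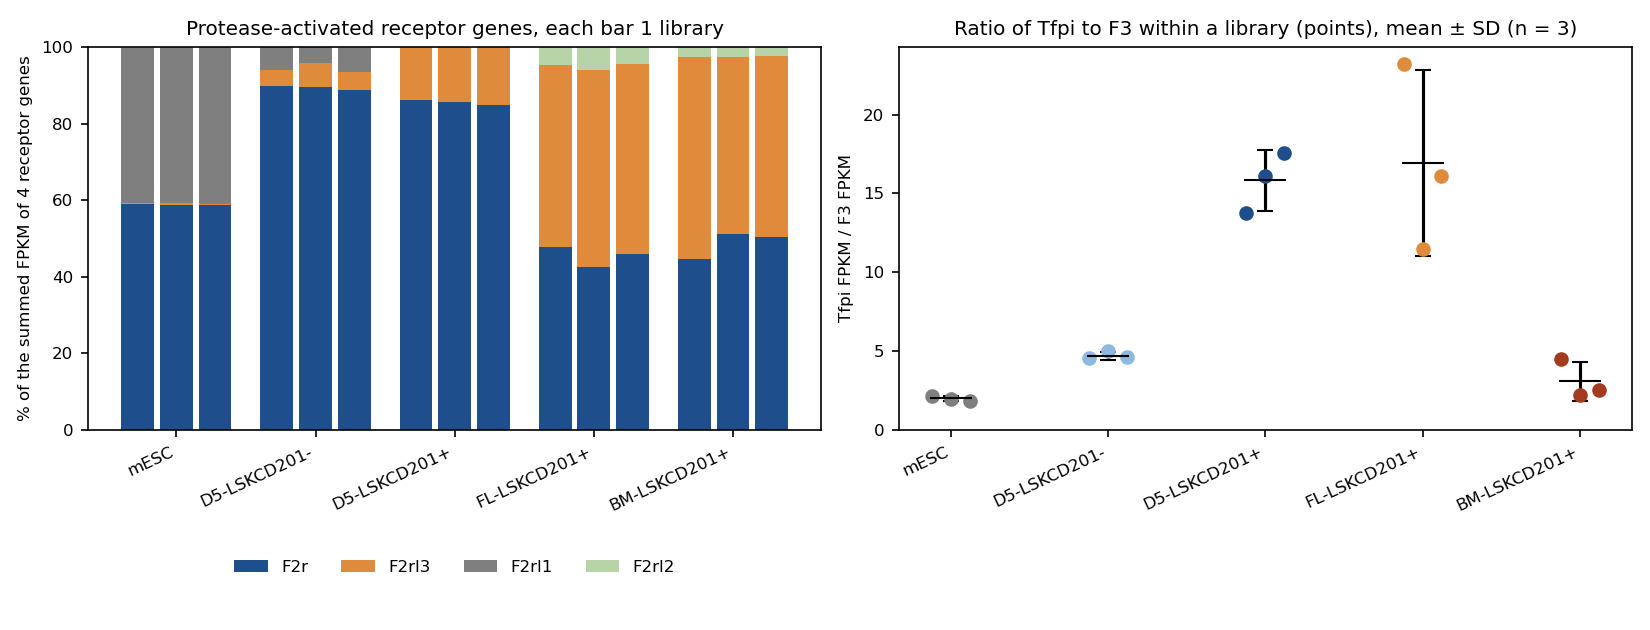
On the left, percent of the summed FPKM of 4 protease-activated receptor genes, each bar a library and the vertical axis from 0 to 100. On the right, the Tfpi to F3 ratio, each point a library, with mean and SD (n = 3). F2rl1 (grey) disappears from the CD201+ bars, F2rl3 (orange) fills about as much as F2r in FL and BM, and the ratio is high in D5-LSKCD201+ and FL-LSKCD201+ and low in BM-LSKCD201+.

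The counts below use 1 rule, a limma adjusted p under 0.05 together with a log2 difference of 1 or more in either direction, and comparisons that share D5-LSKCD201+, D5-LSKCD201-, mESC, FL or BM libraries are not independent of each other. Beside the 7 genes, a list of 43 other genes of the pathway was read, in 6 groups by role (receptors and signaling, zymogens and cofactors, serpins and other inhibitors, fibrin and fibrinolysis, vitamin K dependent carboxylation, and protein S and Gas6 receptors). F9 had no values among the coculture genes. A gene near 0 in 1 of the groups compared passed the filter on low values only through the other, had to differ, and supports no count.

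Between D5-LSKCD201+ and D5-LSKCD201-, 4 of the 7 genes were called higher (Procr, the sort marker, with Thbd, F2r and Pros1) and F2rl1 lower, where 24.7% of the 13691 genes tested were called, 10.8% higher and 13.9% lower. All 7 had an adjusted p under 0.05, as did 68.3% of all genes, and groups that did not overlap, as did 73.6%. Their median log2 fold change was 2.16, against -0.12 over all genes (-0.02 after quantile normalization), and 1.51 without the sort marker Procr. The median, given as a description, still holds F2rl1, which had to differ. Of the pathway list, 24 were tested, 6 were higher, 1 was lower and 17 were not called, with a median of 0.31. Plau, among the 6, averaged 0.412 FPKM in D5-LSKCD201- and passed the filter only through D5-LSKCD201+. The largest rises were those of S1pr1, the sphingosine 1-phosphate receptor through which activated protein C is known to protect endothelium (81.9 to 87.7 against 3.92 to 4.76 FPKM, log2 fold change 3.99), F2rl3 (3.74), F10, which encodes factor X (2.79), and Anxa5, which encodes the phospholipid-binding anticoagulant annexin A5 (2.03). Proc, which encodes protein C, the ligand of CD201, was the 1 lower gene, listed at 0 in all 3 D5-LSKCD201+ libraries and at 1.67, 1.76 and 2.10 FPKM in D5-LSKCD201-, through which alone it passed the filter. Of the endothelial list, 9 of 10 genes were higher in D5-LSKCD201+ as well, as were 3 of 7 tested pan-hematopoietic and 2 of 2 tested megakaryocyte and platelet genes. All 7 pluripotency genes were lower, and the part of these cell types in these differences was not tested.

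Against mESC, D5-LSKCD201+ cells had 5 of the 7 genes higher (Procr at 4.16, Thbd 3.97, F2r 3.75, Tfpi 3.27 and Pros1 2.05) and F2rl1 lower, where 37.6% of all 13441 genes tested were called, 19.5% higher and 18.1% lower. Thbd, near 0 in mESC, passed the filter only through the D5-LSKCD201+ libraries. F3 differed by 0.36 (adjusted p = 0.00403), under the size threshold. All 7 passed on the adjusted p alone, as did 85.5% of all genes, and all 7 had groups that did not overlap, as did 86.1%. The median of the 7 was 3.27, or 2.66 without the sort marker Procr, against -0.07 over all genes. This median is given as a description, since it holds Thbd and F2rl1, which had to differ given the filter. Of 20 pathway genes tested, 11 were higher and none was lower, among them S1pr1 (6.04), Anxa5 (5.30), F2rl3 (5.23) and F10 (4.62), with a list median of 1.44. Among the 11, S1pr1, F2rl3, F10, Vwf and Plau passed the filter on low values only through D5-LSKCD201+. All 10 endothelial genes and 6 of 7 tested stromal genes were higher too and all 7 pluripotency genes lower, and the part of these cell types was not tested.

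D5-LSKCD201- cells, compared with the same mESC libraries, had Tfpi, Thbd, F3 and F2r higher (4 of 7) and F2rl1 lower, where 14.3% of 13596 genes were called, 10.9% higher and 3.48% lower. After quantile normalization the calls over all genes were split into 1148 higher and 723 lower, in place of 1476 and 473. On the adjusted p alone 6 of the 7 passed, beside 54.6% of all genes, and 6 had groups that did not overlap, beside 64.4%. The median of the 7 was 1.11, against 0.05 over all genes. Thbd, at 1.305 (SE 0.19, adjusted p = 0.000996), rose from 0.0955 FPKM on average in mESC, so it passed the filter only through the D5 cells. Of 21 pathway genes, 8 were higher and none lower, led by Anxa5 (3.27), Plat (tissue plasminogen activator, 3.06), Gas6 (a vitamin K dependent ligand of Axl, 2.12) and S1pr1 (2.06), and the list median was 0.56. Among the 8, S1pr1, F2rl3 and F10 passed the filter on low values only through D5-LSKCD201-. Here 8 of 10 endothelial and 6 of 7 tested stromal genes were higher and 4 of 7 pluripotency genes lower, and their part was not tested.

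Against FL-LSKCD201+, 6 of the 7 genes could be tested and 5 were higher in D5-LSKCD201+ (Pros1, F2r, Thbd, Tfpi and F3), with none lower, where 34.7% of 13627 genes were called, 15.1% higher and 19.6% lower. All 6 passed on the adjusted p alone, beside 72.1% of all genes, and had groups that did not overlap, beside 76.6%. The median of the 6 was 1.71, against -0.16 over all genes (-0.06 after quantile normalization). Of the pathway list, 11 of 33 tested genes were higher and 15 lower, with a median of -0.58. Of the 15, all but F13a1 and Vkorc1l1 passed the filter on low values only through FL-LSKCD201+ and had to differ. Of the 11, S1pr3, F8, Plat and Plau passed it only through D5-LSKCD201+. These counts and the median are therefore given as descriptions and support no direction. Gas6 (4.10), Plat (3.45), Serpine2 (protease nexin 1, a thrombin inhibitor, 2.38) and Tyro3 (2.26) stood higher in D5-LSKCD201+. Serpinf2 (alpha 2-antiplasmin, -4.30), Sphk1 (sphingosine kinase 1, -3.46) and Fga (fibrinogen alpha chain, -3.28) stood lower, as did Fgg (fibrinogen gamma chain), which was listed at 0 in D5-LSKCD201+ and at 7.87, 13.8 and 13.4 FPKM in FL-LSKCD201+. Liver is the known source of plasma fibrinogen and antiplasmin, and Alb stood at 63.0 to 73.7 FPKM in these FL libraries and 0 to 0.0714 in D5-LSKCD201+. Of the endothelial list 9 of 10 genes and of the stromal list 5 of 7 tested were higher in D5-LSKCD201+, while 7 of 7 hepatocyte, 7 of 8 pan-hematopoietic, 7 of 7 tested myeloid and 6 of 6 erythroid genes were lower. The part of these cell types was not tested.

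Against BM-LSKCD201+, 4 of 6 tested genes were higher in D5-LSKCD201+ (Pros1, Thbd, F2r and Tfpi) and Procr was lower, where 44.7% of 13775 genes were called, 17.5% higher and 27.2% lower (2406 and 3753 genes, or 2881 and 3014 after quantile normalization). All 6 passed on the adjusted p alone, beside 83.4% of all genes, and had groups that did not overlap, beside 85.3%. The median was 3.06, against -0.23 over all genes (-0.03 after quantile normalization). Of 21 pathway genes, 8 were higher and 5 lower, with a median of 0.82. Among the called genes, F10, F8, Plat, Plau and Tyro3 passed the filter on low values only through D5-LSKCD201+, and F2rl2 only through BM-LSKCD201+. F10 (4.62), Serpine2 (3.72), Plat (3.71) and Tyro3 (2.72) were higher, and Plaur (the urokinase receptor, -1.49), F2rl2 (-1.09), Vkorc1 (the vitamin K epoxide reductase, -1.05) and Axl (-1.03) lower. The list of 8 pan-hematopoietic genes was lower in D5-LSKCD201+ in all 8, summing to 147 to 151 FPKM against 1828 to 2018. Kit and Ly6a and 4 of 5 tested myeloid genes were lower as well, while all 10 endothelial and 6 of 7 tested stromal genes were higher, and the part of these cell types was not tested.

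Between the tissue groups, 1 of 6 tested genes was called, Tfpi, lower in BM-LSKCD201+ than in FL-LSKCD201+, where 19.1% of 13503 genes were called, 11.3% higher and 7.78% lower (1531 and 1050 genes, or 1240 and 1219 after quantile normalization). With the adjusted p alone 4 of the 6 passed (Tfpi, Thbd, Procr and F2r), beside 55.1% of all genes, and the same 4 had groups that did not overlap, beside 63.5%. Their median was 0.35, against 0.13 over all genes (0.02 after quantile normalization). Of 30 pathway genes, 4 were higher in bone marrow, namely Gas6 (3.27), Plaur (1.42), S1pr1 (1.11) and Anxa5 (1.11). Another 15 were lower, among them Serpinf2 (-4.30), F13a1 (factor XIII A chain, -3.42) and Fga (-3.28), with Fgg listed at 0 in all bone marrow libraries. Of these 15, all but Sphk1 and Serpine2 passed the filter on low values only through FL-LSKCD201+ and had to differ. The count of 15 and the list median of -1.04 are therefore given as descriptions and support no direction. All 7 hepatocyte and 6 of 6 erythroid genes were lower in bone marrow too, as were 4 of 8 myeloid and 3 of 9 tested endothelial genes. Kit, Ly6a and 3 of 8 pan-hematopoietic genes were higher, and the part of these cell types was not tested.

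In total coculture cells, 2 of the 7 genes were called, F2r and Pros1, both higher with OP9, where 2.62% of 12958 genes were called, 2.11% higher and 0.509% lower. With Thbd, which had to differ given the filter, 3 of the 7 passed on the adjusted p alone, beside 6.88% of all genes. The groups did not overlap for 4 of the 7 genes (F2r, Pros1 and Thbd higher, F2rl1 lower), as for 28.7% of all genes. The median of the 7 was 0.50, against 0.01 over all genes. Of 19 pathway genes, S1pr1 (1.49, adjusted p = 0.000936) and F10 (1.10, adjusted p = 0.00313, which passed the filter only through the OP9 libraries) were higher, none was lower and 17 were not called, with a list median of 0.08. S1pr1 stood at 4.77, 4.82 and 4.21 FPKM with OP9 against 1.10, 0.88 and 1.02 on gelatin, and F10 at 1.85, 2.33 and 2.24 against 0.47, 0.38 and 0.53. Pluripotency genes went both ways. Their sum was 685 to 1048 FPKM with OP9 and 1078 to 1205 on gelatin, most of it from Pou5f1 and Tdgf1, while 2 of the 7 genes, Zfp42 (log2 fold change 2.67) and Esrrb (3.42), were called higher with OP9 and none lower. Of the endothelial list, 7 of 10 genes were higher with OP9.

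**Figure D5:**
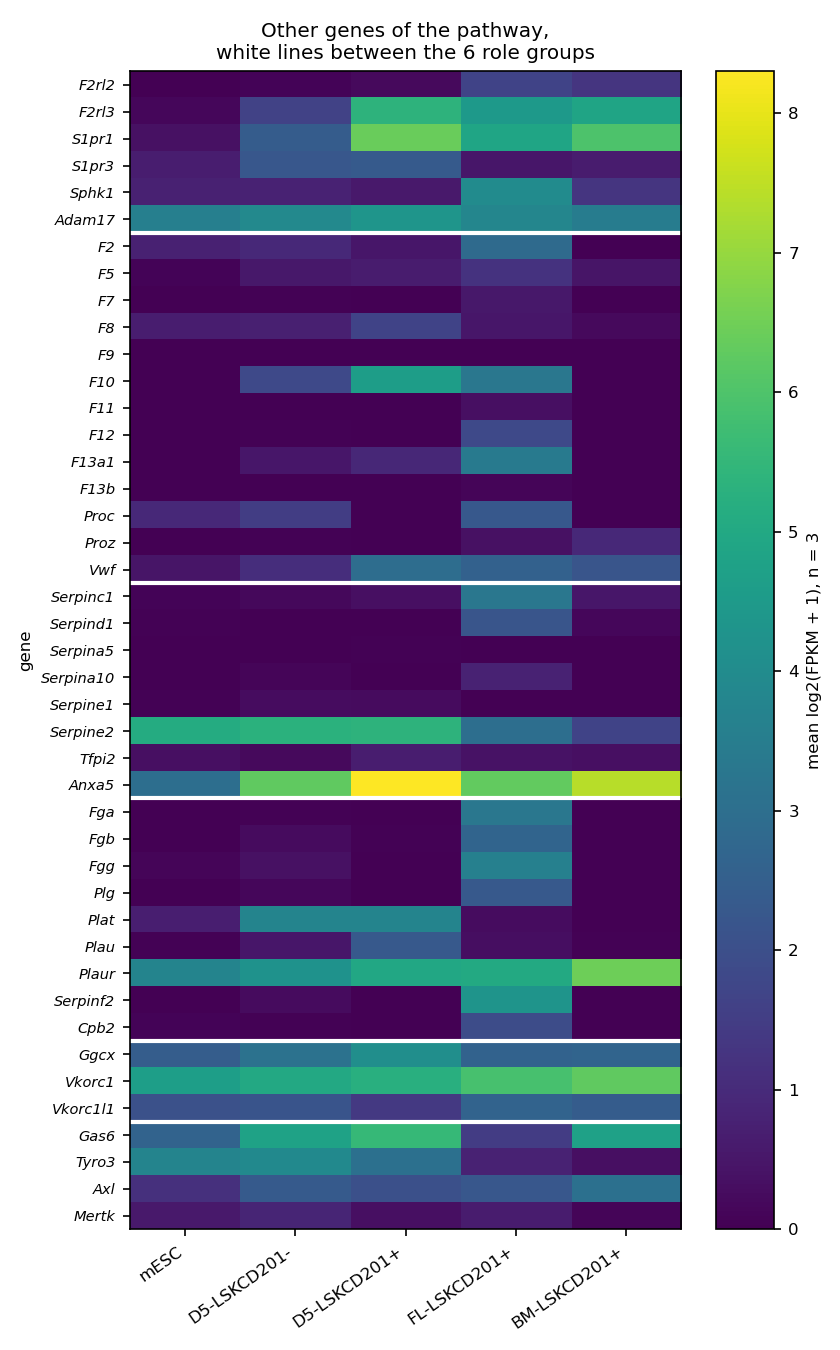
Mean log2(FPKM + 1) of 43 other pathway genes (vertical axis, white lines between 6 role groups) in the 5 sorted groups (n = 3, horizontal axis), with the colour scale starting at 0. S1pr1 and Anxa5 are brightest in D5-LSKCD201+, and Serpinf2, Fga and Fgg are brightest in FL-LSKCD201+.

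Genes with the profile most like each member were found over the 15 sorted libraries by the root mean square difference of centred log2(FPKM + 1) values, among 14457 genes averaging 0.5 FPKM or more. For Procr the 5 nearest were Mfng (0.32), Arhgap25 (0.32), Tmem173 (0.36), Erg (0.39) and Nrros (0.40), against a median of 2.18 over all genes. Mfng, a glycosyltransferase that modifies Notch, stood at 97.2 FPKM on average in D5-LSKCD201+, 98.2 in FL-LSKCD201+ and 166 in BM-LSKCD201+, against 7.15 in D5-LSKCD201- and 7.35 in mESC. No other member was near Procr, the nearest being Thbd at rank 4135. Thbd was nearest Arap3, Prr5l and Ets2, F2r nearest Synpo, Adgrg6 and Arhgef28, Tfpi nearest Tnni1, Cda and Cd302, and Pros1 nearest Stap2, Wscd1 and Tnfaip1. F2rl1 was nearest Chrna9, Radil and Nphs1, and F3 nearest Higd1a, Aldoa and Ror1. Among the members themselves, Thbd was at rank 84 from Tfpi and F2r at rank 105 from Thbd. The 15 points share 5 groups, so these distances describe group means as much as libraries.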

How the data were processed

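RNA was extracted with TRIzol and mRNA libraries were sequenced by the authors, who deposited FPKM per gene and library in a coculture table (6 libraries) and a sorted-cell table (15 libraries). Per the labels and methods, reads were aligned with HISAT2 2.0.5 and quantified with StringTie 1.3.3, and Cuffdiff 1.3.0 was used for testing. The submitters' processing notes name GRCm38 and mm9, and the positions in the sorted-cell table fit GRCm38. Coculture values are rounded to 2 decimals, and 3578 of 22899 genes are blank. No counts were used and depth is unknown, so the precision is given by the spread of 3 libraries.

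From the FPKM, log2(FPKM + 1) was compared with limma 3.58.1 (trend, two-sided) in R 4.3.3, on the pair of groups compared. Genes averaging 0.5 FPKM or more in the libraries compared were fitted together and p-values adjusted by Benjamini-Hochberg over all of them. Calls needed an adjusted p under 0.05 together with a log2 difference of 1 or more in either direction, and the fold changes understate those of low genes. Fold values are ratios of mean FPKM. Groups came from the sample labels. The members and gene lists were chosen with earlier results of these data known. All members were named in every comparison, and for the pathway list at most the 4 called genes with the largest change in each direction.

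Replicate numbers are shared between groups. Deviations of same-numbered libraries correlated above 0.1 in every pair only for BM against FL (0.242, 0.202 and 0.159), where the replicate block changed no call of the 7 genes. Alternatives were a pseudocount of 0.1, no filter, a filter at 1 FPKM, quantile normalization, the replicate block, a fit over all 5 sorted groups, the adjusted p alone and leaving out each library. Figures were drawn with matplotlib 3.10.9 in Python 3.11.15.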

Additional observations from a re-analysis of the deposited data

How the results depend on the processing

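Of the 7 counts of called genes, 5 kept their value within 1.5 times under every alternative run. In 3D+OP9 against 3D+0.1%gel, the count of 2 became 1 after quantile normalization, where Pros1 was lost, and ran from 1 to 3 with a library left out. Pros1 was lost without 3D+OP9 replicate 1 or 2 or 3D+0.1%gel replicate 1 or 2, and Tfpi was gained without 3D+0.1%gel replicate 3. In BM-LSKCD201+ against FL-LSKCD201+, the count of 1 became 4 with the adjusted p alone, 2 with a pseudocount of 0.1 and 2 after quantile normalization, and ran from 1 to 2 with a library left out, since Thbd was gained. Of the single log2 fold changes under alternatives, 523 kept their direction and side of the threshold, 11 fell short of it, 8 passed it and 1 turned its sign, that of Procr in the coculture without 3D+OP9 replicate 3 (log2 fold change of Procr from -0.091 to 0.35 with a library left out). The replicate block left the counts of called members at 2, 5, 6, 5, 5, 5 and 1 in the order OP9 against gelatin, D5-LSKCD201+ against D5-LSKCD201- and mESC, D5-LSKCD201- against mESC, D5-LSKCD201+ against FL and BM, and BM against FL. Over all genes in the coculture the block gave 379 calls in place of 339, and the correlations of same-numbered libraries there were 0.182, 0.0724 and 0.291, so 1 of 3 missed 0.1 and whether the numbers pair these libraries is not settled. Not every library correlated best with its own number. Calls over all genes in the coculture were 531 with a pseudocount of 0.1 and 209 without 3D+0.1%gel replicate 2. With the adjusted p alone, the calls over all genes were 891 in place of 339 in the coculture, 9349 in place of 3379 (D5-LSKCD201+ against D5-LSKCD201-), 11496 in place of 5056 (against mESC), 7418 in place of 1949 (D5-LSKCD201- against mESC), 9823 in place of 4727 (against FL), 11486 in place of 6159 (against BM) and 7446 in place of 2581 (BM against FL). The cause of these shifts was not tested, beyond the added criterion itself.

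Depth is unknown, so values under 0.1 FPKM, such as F2rl1 in CD201+ cells, cannot be told from 0 with a stated precision. Strain and source, and the makeup of the sorted fractions, move with the groups compared.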

Other observations

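The neighbours of 2 loci within 150 kb were read as a description, chosen after the values of the members had been seen. Edem2, 21.6 kb from Procr and involved in the breakdown of misfolded proteins, stood at 19.1 ± 0.268 FPKM (SD, n = 3) in mESC, 25.5 ± 1.48 in D5-LSKCD201-, 41.0 ± 1.08 in D5-LSKCD201+, 52.7 ± 8.41 in FL-LSKCD201+ and 96.7 ± 2.50 in BM-LSKCD201+, the same order of groups as Procr over a smaller span. Mmp24, 19.9 kb on the other side, held 0.354 ± 0.0998 FPKM in mESC and was listed at 0 in all 3 D5-LSKCD201+ libraries. Of the other protein-coding genes in the Procr window, BC029722 had the order of Procr as well, while Myh7b, Trpc4ap, Eif6, Fam83c and Uqcc1 did not. Iqgap2, 8.7 kb from F2r, held 3.12 ± 0.0269 FPKM in mESC, 3.42 ± 0.348 in D5-LSKCD201+, 16.5 ± 0.970 in FL-LSKCD201+ and 35.5 ± 2.39 in BM-LSKCD201+, and thus was not high where F2r was. F2rl2, 78.4 kb from F2r and within the span of Iqgap2, stood at 2.16 ± 0.393 FPKM in FL-LSKCD201+ and 1.44 ± 0.139 in BM-LSKCD201+, against 0.147 ± 0.0533 in D5-LSKCD201+.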
